A study of Mus musculus with 10 samples.

Results

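The genes described here are those of 7 solute carrier families that carry amino acids and related molecules across membranes, the families Slc1, Slc3, Slc6, Slc7, Slc36, Slc38 and Slc43. They were taken by gene symbol from a table of 29868 mouse genes, leaving out Slc7a13, and 60 genes matched. Of these, 57 were transporter genes and 3 were genes on the opposite strand that are named after a transporter (Slc6a19os, Slc36a3os and Slc7a6os). Not every transporter in these families carries an amino acid. Slc6a8 takes up creatine, Slc6a2 to Slc6a4 take up monoamine transmitters, and Slc43a3 carries purine nucleobases.

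The series compared RNA from mice given navarixin, an oral antagonist of the chemokine receptor CXCR2, after myocardial infarction (MI) with RNA from mice with MI alone. The mice were wild-type C57BL/6 males, 8 weeks old, and all of them had an infarct made by tying off the left anterior descending coronary artery. The Nav group (libraries MI+Nav 1 to 5) was dosed orally with 1 mg/kg navarixin each day over 4 weeks, and the MI group (libraries MI 1 to 5) was dosed with saline on the same schedule. Neither the day on which the sequenced tissue was taken nor the mouse behind each library is stated in the sources used here, so p-values measure only the spread between these libraries, which may be technical. Doses and times are those of the general protocol in the methods, not of the sequenced tissue itself. The batch in the labels equals the group, so batch and treatment cannot be told apart.

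The labels name the heart as the tissue of all 10 libraries, yet transcripts typical of heart muscle were close to 0 in each. Of 10 cardiomyocyte markers, 9 were in the table and all 9 had a mean below 1 FPKM (fragments per length of transcript and per mapped fragments of the library), with a summed level of 0.730 to 1.42 FPKM in the Nav libraries and 0.863 to 1.67 FPKM in the MI libraries. The 10 markers of the proximal tubule, the first segment of the kidney nephron, summed to 34674 to 52581 FPKM in the Nav libraries and 31898 to 58752 FPKM in the MI libraries. All statements below hold for the libraries as labelled. The share of mitochondrially encoded genes in the summed FPKM was 26.0 to 45.4% in the Nav libraries and 24.4 to 40.6% in the MI libraries, and the shares were highest in MI+Nav 2, MI+Nav 3, MI 3 and MI 4. The estimated depth was 16730000 to 20640000 fragments per Nav library and 17940000 to 18860000 per MI library. In bulk RNA, fewer cells of a type and less RNA per cell cannot be told apart.

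Amino acid transporters are best known in the kidney, where the proximal tubule recovers amino acids from the filtrate. Transporters of the apical membrane, which faces the urine, take amino acids up together with sodium or in exchange for other amino acids, and transporters of the basolateral membrane pass them on to the blood. Several of them are pairs of a heavy chain (Slc3a1 or Slc3a2), which brings the complex to the membrane, and a light chain of the Slc7 family, which carries the substrate. Other members take up osmolytes or transmitters, or sit on lysosomes, where they take part in nutrient sensing.

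The heavy chain Slc3a1 had the highest expression of the 60 genes in every library. To show the DNA before the genes whose levels stood out, 3 sequences are given, those of Slc3a1 and of the adjacent copies Slc6a20b and Slc6a20a, which differed in level. Each is the stretch of 250 bases before the transcription start in RefSeq (build GRCm38.p6, the same coordinates as mm10), written 5′ to 3′ on the strand of the gene. That of Slc3a1 lies at chr17:85028097-85028346 on the plus strand, that of Slc6a20b at chr9:123632539-123632788 and that of Slc6a20a at chr9:123678833-123679082, both on the minus strand. Capitals mark matches, on either strand, to the letters CAAAGTCCA, an element bound by HNF4 factors, or GTTAAT, a part of the element bound by HNF1 factors.
Slc3a1: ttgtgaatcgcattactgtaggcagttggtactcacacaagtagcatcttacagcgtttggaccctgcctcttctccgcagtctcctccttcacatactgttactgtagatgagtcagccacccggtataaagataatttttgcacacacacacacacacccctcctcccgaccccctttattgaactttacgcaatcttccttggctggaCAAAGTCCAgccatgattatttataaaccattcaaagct
Slc6a20b: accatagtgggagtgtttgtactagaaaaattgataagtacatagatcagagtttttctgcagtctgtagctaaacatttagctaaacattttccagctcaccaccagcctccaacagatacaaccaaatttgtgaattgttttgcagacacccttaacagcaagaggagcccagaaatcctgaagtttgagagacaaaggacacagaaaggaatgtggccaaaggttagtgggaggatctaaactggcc
Slc6a20a: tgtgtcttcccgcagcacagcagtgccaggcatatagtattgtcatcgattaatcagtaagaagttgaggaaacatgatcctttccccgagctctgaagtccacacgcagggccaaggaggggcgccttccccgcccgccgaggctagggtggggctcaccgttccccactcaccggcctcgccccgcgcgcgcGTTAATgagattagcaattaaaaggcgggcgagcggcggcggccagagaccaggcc

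The HNF4 letters were found in 1 of the 44 genes for which a RefSeq stretch was searched, Slc3a1, and in 0.387% of all 32536 mouse promoters of this length. The HNF1 letters were found in 4 of the 44 genes (9.09%), Slc36a1, Slc6a20a, Slc7a15 and Slc6a16, and in 6.47% of all promoters. The first pair averaged 11.5 and 4.77 FPKM, whereas Slc7a15 and Slc6a16 averaged 0.0327 and 0.0132 FPKM. Of the 60 genes ordered by mean level, these 4 were at places 14, 20, 49 and 54. A match of letters is a description of the sequence only. Not every gene was searched, and Slc6a18, Slc6a8 and Slc6a6 were among those left out. Some stretches lay far from the deposited start of the gene, by 47779 bases for Slc1a2, 12229 for Slc6a19 and 9472 for Slc3a2.

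Of the 60 genes, 14 had a mean of at least 10 FPKM over the 10 libraries and 13 had a mean of 1 to 10 FPKM. The other 33 were below 1 FPKM, and 17 of these were below 0.1 FPKM. No gene was at 0 in every library, and 16 were at 0 in at least 1 library. The 12 genes of highest mean took 83.7 to 88.7% of the summed level of the 60 genes in each library. This sum was 476.7 to 745.7 FPKM in the Nav libraries and 577.1 to 851.4 FPKM in the MI libraries, so the groups overlapped. Across the 27 genes with a mean of at least 1 FPKM, the order of levels was similar between libraries, with Spearman's rho of 0.875 to 0.989 for pairs of libraries. These correlations run across genes, which are not independent replicates.

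**Figure D1:**
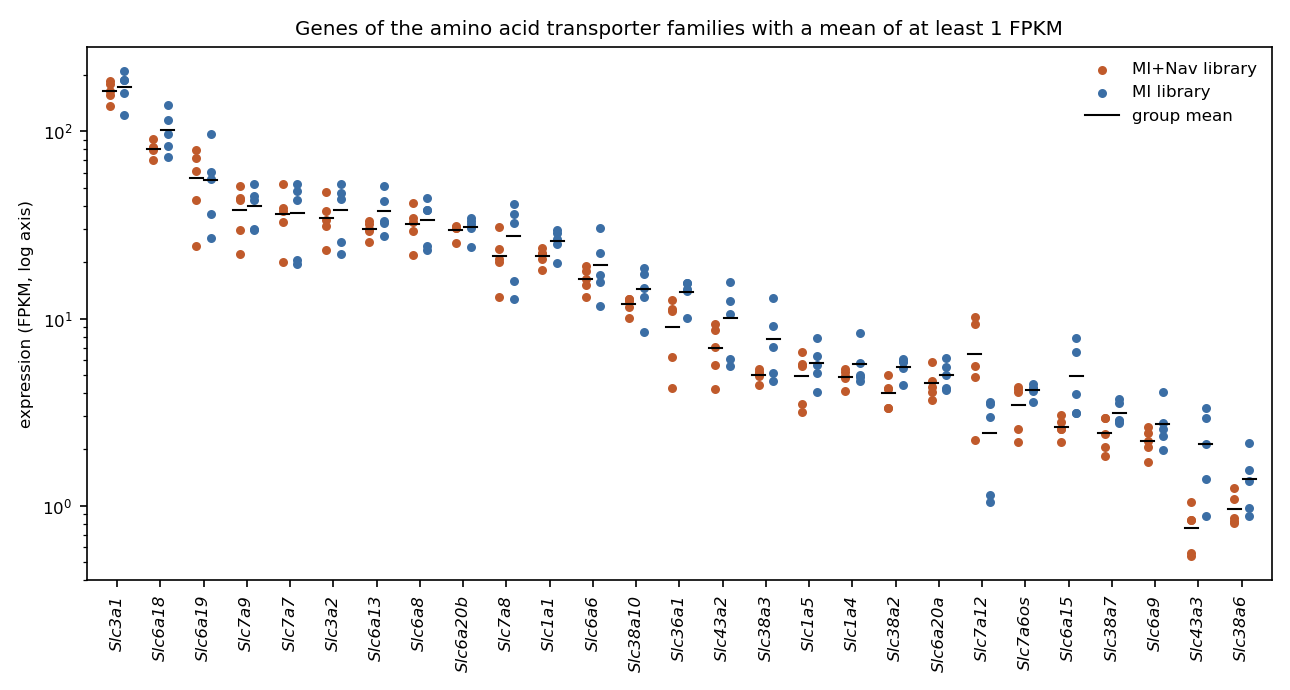
Expression in FPKM (log axis) of the 27 genes with a mean of at least 1 FPKM, ordered by mean over 10 libraries, with 1 point per library and a bar at each group mean (MI+Nav left, MI right). Slc3a1 was highest at a mean of 169 FPKM, and the points of most neighbouring genes overlapped.

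The apical transporters of the proximal tubule formed the most abundant group. Its 8 genes summed to 395 ± 58.8 FPKM in the Nav group and 432 ± 61.5 FPKM in the MI group (SD, n = 5 each), and 0 of the 7 tested genes had an unadjusted p under 0.05 between the groups. Slc3a1 (rBAT, ENSMUSG00000024131, chromosome 17, 85028376 to 85064236 on mm10), the heavy chain of the cystine transporter that is defective in cystinuria, had 157, 137, 165, 185 and 178 FPKM in MI+Nav 1 to 5, against 188, 209.5, 123, 188 and 159.6 FPKM in MI 1 to 5. Its lowest values were in MI 3 and MI+Nav 2, and the groups overlapped. Its level was above that of 99.2% of the genes in the table. The light chain Slc7a9 (chromosome 7, 35448796 to 35466036), which forms the cystine transporter with Slc3a1, had 50.96, 22.2, 29.7, 44.2 and 43.2 FPKM in MI+Nav 1 to 5, against 45.1, 52.3, 29.96, 29.6 and 42.9 FPKM in MI 1 to 5. The 4 libraries with the highest mitochondrial shares were the 4 lowest for Slc7a9.

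Slc3a1 exceeded Slc7a9 in each library, by a factor of 3.07 to 6.17 in the Nav group and 3.72 to 6.33 in the MI group. Slc7a13, the light chain that pairs with Slc3a1 in the late proximal tubule and is not among the 60 genes, averaged 276 FPKM. The level of Slc3a1 divided by the sum of Slc7a9 and Slc7a13 was 0.448 to 0.625 in the Nav group and 0.493 to 0.634 in the MI group, so the light chains together exceeded the heavy chain in every library.

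Slc6a18 and Slc6a19 encode sodium-dependent carriers of neutral amino acids in the brush border. Slc6a19 (B0AT1) is placed mainly in the early proximal tubule and is the gene of Hartnup disorder in humans, and Slc6a18 (B0AT3) is placed in later segments. The genes lie 1.72 kb apart on chromosome 13, on the same strand. Slc6a18 (chromosome 13, 73661752 to 73678023) had 90.5, 70.2, 79.5, 81.4 and 82.9 FPKM in MI+Nav 1 to 5, against 97.2, 83.7, 114, 138 and 73.01 FPKM in MI 1 to 5. It was highest in MI 4 and MI 3, and the groups overlapped. Slc6a19 (chromosome 13, 73679745 to 73704865) had 72.4, 24.5, 43.04, 79.8 and 61.7 FPKM in MI+Nav 1 to 5, against 60.5, 97.1, 36.3, 26.8 and 55.5 FPKM in MI 1 to 5. It was lowest in MI+Nav 2, MI 4, MI 3 and MI+Nav 3, the libraries of highest mitochondrial share, and ranged 3.96-fold over the 10 libraries, against 1.96-fold for Slc6a18.

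The level of Slc6a18 divided by that of Slc6a19 was 1.25, 2.87, 1.85, 1.02 and 1.34 in MI+Nav 1 to 5, against 1.61, 0.863, 3.15, 5.14 and 1.32 in MI 1 to 5. It was above 1 in 9 of 10 libraries, the exception being MI 2, and the highest ratio was that of MI 4. The adjacent genes therefore did not keep a fixed ratio between libraries. The antisense gene Slc6a19os overlaps Slc6a19 by 5040 bases and averaged 0.182 FPKM. Whether fragments were assigned by strand is unknown here, so fragments of this overlap may not be separable between the genes.

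Slc6a20b and Slc6a20a encode copies of the proline (imino acid) carrier and lie 2.2 kb apart on chromosome 9. Slc6a20b (chromosome 9, 123590800 to 123632565) had 30.6, 25.4, 30.4, 31.2 and 30.9 FPKM in MI+Nav 1 to 5, against 33.3, 34.3, 23.99, 31.9 and 30.6 FPKM in MI 1 to 5. With a range of 1.43-fold over the 10 libraries, it varied least of the 60 genes. Slc6a20a averaged 4.51 ± 0.822 FPKM in the Nav group and 5.02 ± 0.858 FPKM in the MI group (SD, n = 5 each). Slc6a20b was higher than Slc6a20a in 10 of 10 libraries, by a factor of 6.49 ± 1.15 (SD, n = 10). The transcripts of the copies share 631 stretches of 50 bases (15.3% of those of Slc6a20a and 7.24% of those of Slc6a20b), so part of their fragments could be assigned to either gene and both levels are uncertain. The matches marked in the sequences above also differed, with the HNF1 letters in Slc6a20a and not in Slc6a20b.

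Slc1a1 (EAAT3, chromosome 19, 28835049 to 28913960), the carrier of glutamate and aspartate in the brush border, had 22.4, 18.2, 23.9, 20.9 and 22.1 FPKM in MI+Nav 1 to 5, against 29.6, 28.7, 19.8, 25.1 and 26.5 FPKM in MI 1 to 5. The 4 highest values were in MI 1, MI 2, MI 5 and MI 4, but MI 3 lay below 4 of the Nav libraries. Slc36a2, a proton-coupled carrier of glycine and proline, completed the apical group with a mean of 0.0693 FPKM and was at 0 in 5 libraries. Its neighbour Slc36a1, 19.3 kb away, whose transcript shares 1.55% of its 50-base stretches with Slc36a2, averaged 11.5 FPKM.

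In the basolateral group, the 6 genes summed to 105 ± 28.4 FPKM in the Nav group and 121 ± 41.6 FPKM in the MI group (SD, n = 5 each). Slc3a2 (4F2hc, chromosome 19, 8706882 to 8723369), the heavy chain of the basolateral exchangers, had 47.1, 23.3, 31.1, 33.7 and 37.6 FPKM in MI+Nav 1 to 5, against 43.6, 46.6, 22.1, 25.6 and 52.3 FPKM in MI 1 to 5. Slc7a7 (y+LAT1, chromosome 14, 54369442 to 54417780), the light chain for cationic amino acids that is defective in lysinuric protein intolerance, had 52.3, 20.04, 32.9, 39.02 and 37.4 FPKM in MI+Nav 1 to 5, against 43.2, 52.4, 19.6, 20.6 and 47.96 FPKM in MI 1 to 5. Slc7a8 (LAT2, chromosome 14, 54722209 to 54781946), the light chain for neutral amino acids, had 30.7, 12.97, 20.9, 20.01 and 23.4 FPKM in MI+Nav 1 to 5, against 36.3, 40.8, 15.8, 12.7 and 32.5 FPKM in MI 1 to 5. Within both groups these 3 genes were lowest in the same libraries, MI+Nav 2 in the Nav group and MI 3 and MI 4 in the MI group, and the groups overlapped for each gene. Slc3a2 divided by the sum of its 6 known light chains (Slc7a5, Slc7a6, Slc7a7, Slc7a8, Slc7a10 and Slc7a11) was 0.597 ± 0.0578 in the Nav group and 0.606 ± 0.0950 in the MI group (SD, n = 5 each). This ratio ranged from 0.497 to 0.742, while the summed light chains ranged from 33.5 to 93.7 FPKM.

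**Figure D2:**
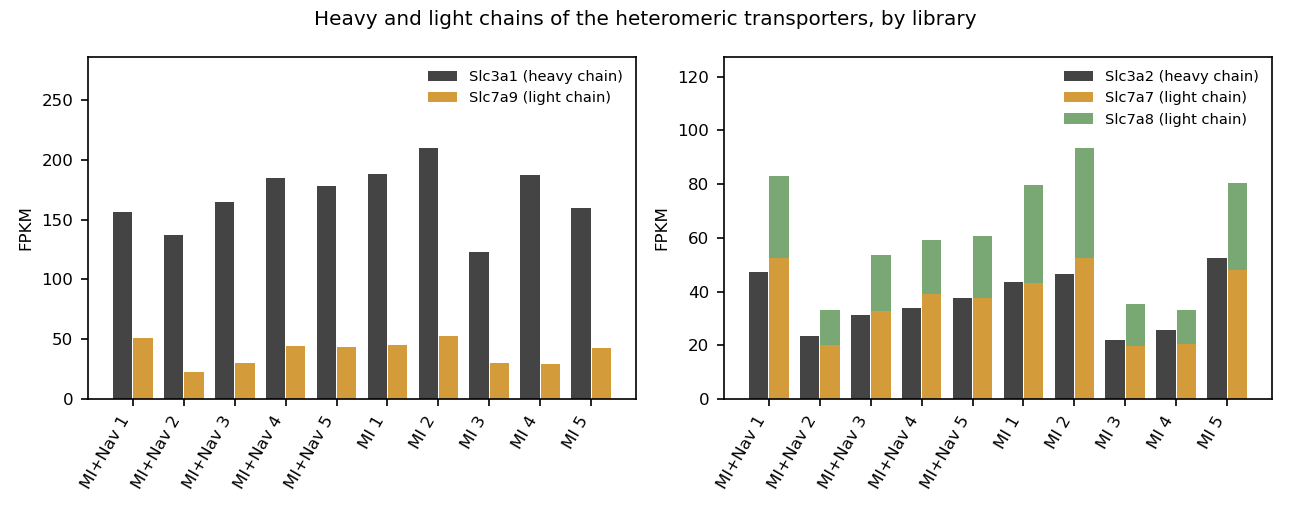
Levels in FPKM of the heavy chain Slc3a1 beside its light chain Slc7a9 (left) and of Slc3a2 beside its main light chains Slc7a7 and Slc7a8, stacked (right), with 1 pair of bars per library and the Nav libraries left of the MI libraries. Slc3a1 was above Slc7a9 in every library, and Slc3a2 was below the sum of its light chains in every library.

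The other basolateral genes, Slc43a2, Slc7a6 and Slc38a3 (described with the comparison below), were lower. Slc43a2 (LAT4), an exporter of branched-chain and aromatic amino acids, averaged 7.00 ± 2.13 FPKM in the Nav group and 10.1 ± 4.27 FPKM in the MI group (SD, n = 5 each). Slc7a6 (y+LAT2), the widely expressed relative of Slc7a7, averaged 0.838 ± 0.41 FPKM in the Nav group and 0.657 ± 0.227 FPKM in the MI group (SD, n = 5 each). The light chains of other tissues were near 0, with means of 0.234 FPKM for Slc7a5 (LAT1), 0.00583 FPKM for Slc7a10 (Asc-1) and 0.0243 FPKM for Slc7a11 (xCT, the cystine and glutamate exchanger). Slc7a10 lies 248 kb from Slc7a9, which averaged 39.01 FPKM.

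The carriers of osmolytes and energy substrates summed to 78.7 ± 11.6 FPKM in the Nav group and 90.8 ± 8.31 FPKM in the MI group (SD, n = 5 each). Slc6a13 (GAT2, chromosome 6, 121300227 to 121337733), a carrier of GABA, betaine and taurine, had 32.04, 25.7, 30.3, 29.4 and 33.4 FPKM in MI+Nav 1 to 5, against 32.2, 27.6, 42.4, 51.4 and 33.2 FPKM in MI 1 to 5. Like Slc6a18, it was highest in MI 4 and MI 3. Slc6a8 (chromosome X, 73673150 to 73682502), the creatine carrier, had 41.4, 21.8, 29.3, 34.4 and 32.8 FPKM in MI+Nav 1 to 5, against 38.02, 43.9, 24.6, 23.3 and 38.02 FPKM in MI 1 to 5. It was lowest in the 4 libraries of highest mitochondrial share. Slc6a6 (TauT, chromosome 6, 91684053 to 91759066), the taurine carrier, had 19.1, 13.05, 18.01, 15.1 and 16.2 FPKM in MI+Nav 1 to 5, against 22.3, 30.4, 11.6, 15.6 and 17.02 FPKM in MI 1 to 5. Its highest and lowest values, in MI 2 and MI 3, were both in the MI group. Slc6a12 (BGT1), the betaine carrier of cells under osmotic stress, lies 5.34 kb from Slc6a13 and averaged 0.396 FPKM, against 33.8 FPKM for Slc6a13.

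Neighbours in the order of levels mostly did not differ beyond their spread. Among the 27 genes with a mean of at least 1 FPKM there are 26 pairs of neighbours, and the higher gene was above the lower one in all 10 libraries in 2 of them, Slc3a1 over Slc6a18 and Slc6a6 over Slc38a10. The other 24 pairs changed places in at least 1 library. Slc6a20b, for example, took ranks 4 to 10 and Slc6a13 ranks 3 to 12, although both stayed within a 2.00-fold range of level.

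**Figure D3:**
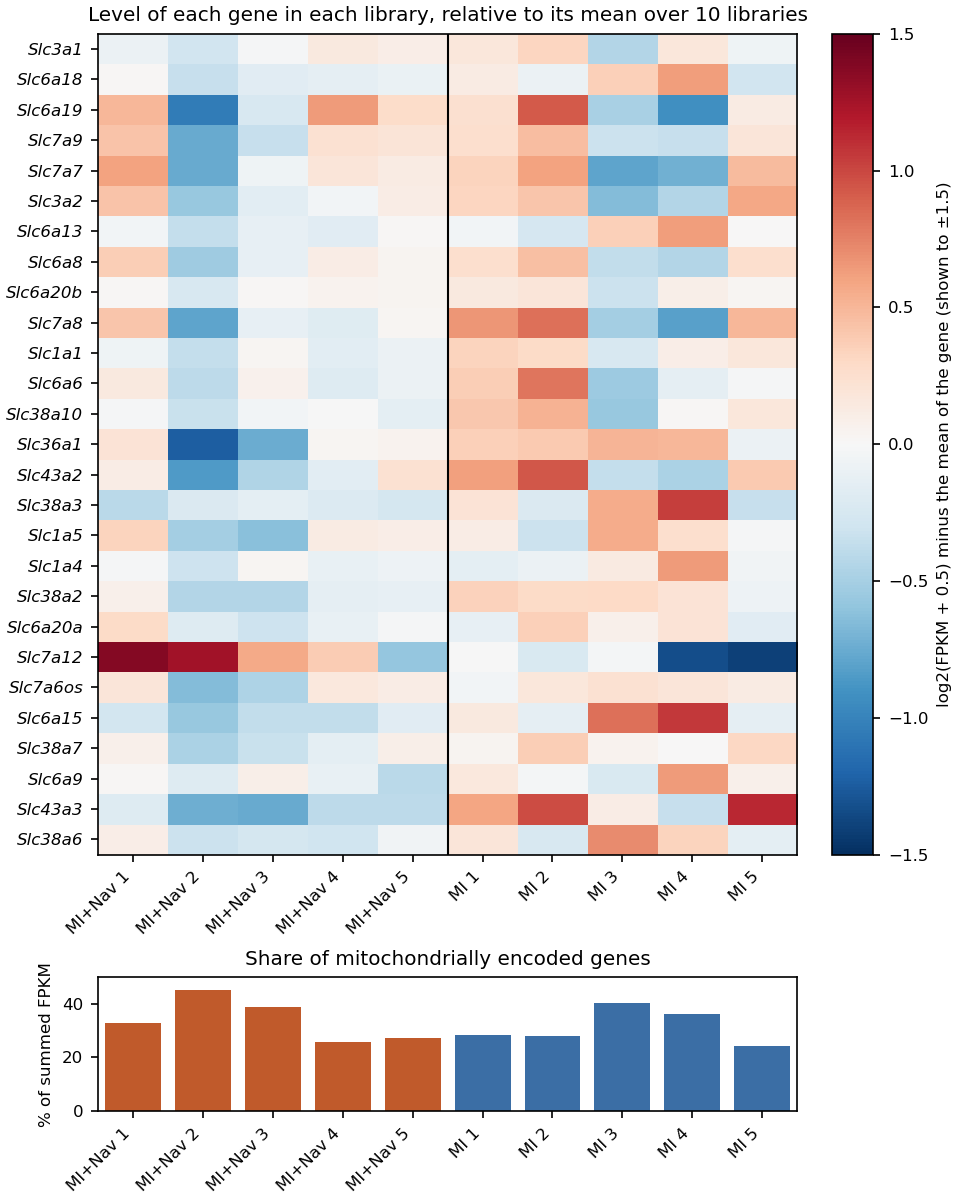
Difference in log2(FPKM + 0.5) of each of the 27 genes from its own mean over 10 libraries, by library (upper panel, colour shown to ±1.5), and the percentage of summed FPKM from mitochondrially encoded genes (lower panel, bars from 0). Slc6a19, Slc7a7, Slc7a8 and Slc3a2 were low in MI+Nav 2, MI 3 and MI 4, while Slc6a18, Slc6a13, Slc38a3 and Slc6a15 were highest in MI 3 and MI 4.

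Part of the genes were lowest in the 4 libraries of highest mitochondrial share, at a rate near that of all tested genes. Others were highest in 2 of these libraries. Both patterns were described after the values were seen. Of the 33 genes tested below, 6 had their 4 lowest values in MI+Nav 2, MI+Nav 3, MI 3 and MI 4 (18.2%, against 15.7% of all 13412 tested genes). They were Slc6a19, Slc7a9, Slc7a7, Slc3a2, Slc6a8 and Slc43a2. After rescaling each library to a common sum of the genes that are not mitochondrially encoded, the number was again 6, against 19.8% of all tested genes. A further 7 genes, Slc6a18, Slc6a13, Slc38a3, Slc6a15, Slc1a4, Slc38a6 and Slc36a1, had their 2 highest values in MI 3 and MI 4 (21.2%, against 5.86% of all tested genes). With the rescaling this held for 6 genes, without Slc36a1, against 4.57% of all tested genes. In FPKM as deposited, MI+Nav 2, the library of highest mitochondrial share, held the lowest value of each of the 7 genes except Slc38a3. The part of the mitochondrial share in these levels was not tested.

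The Nav group was then set against the MI group. A gene entered the test where 5 or more libraries had 0.5 FPKM or more, and limma was run on log2(FPKM + 0.5), so fold changes are on that scale and are too small for genes of low level. Of the 60 genes, 33 passed this filter (32 transporter genes and Slc7a6os) and 27 did not. None of the 33 had a Benjamini-Hochberg adjusted p under 0.05 from limma, where the share over all tested genes was 0.365% (0.35% lower and 0.0149% higher in the Nav group), or 0.224% where a log2 fold change of 1 or more in size was also required. The lowest adjusted p from limma was 0.123, that of Slc43a3. An unadjusted p under 0.05 was found for 7 of the 33 genes (21.2%), 6 with a lower and 1 with a higher level in the Nav group, against 12.8% of all tested genes, of which 11.5% were lower and 1.25% higher. With median-of-ratios scaling and with quantile normalization the 7 became 4, while the number over all tested genes rose from 1711 to 2090 and 1803. In FPKM as deposited, the groups did not overlap for 1 of the 33 genes, Slc6a15, which was lower in the Nav group. Over all tested genes, 2.84% did not overlap, 2.57% being lower and 0.268% higher in the Nav group.

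The log2 fold change was below 0 for 27 of the 33 genes, against 71.7% of all tested genes. Its median was -0.22 over the 33 genes and -0.12 over all tested genes, a difference of -0.10. With median-of-ratios scaling the median over all tested genes was 0.03 and that over the 33 genes -0.07, again a difference of -0.10. Apart from the 7 genes with an unadjusted p under 0.05, the log2 fold changes lay between -0.44 and 0.17. The 12 genes of highest level were among these, from -0.29 for Slc6a18 to 0.05 for Slc6a19.

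**Figure D4:**
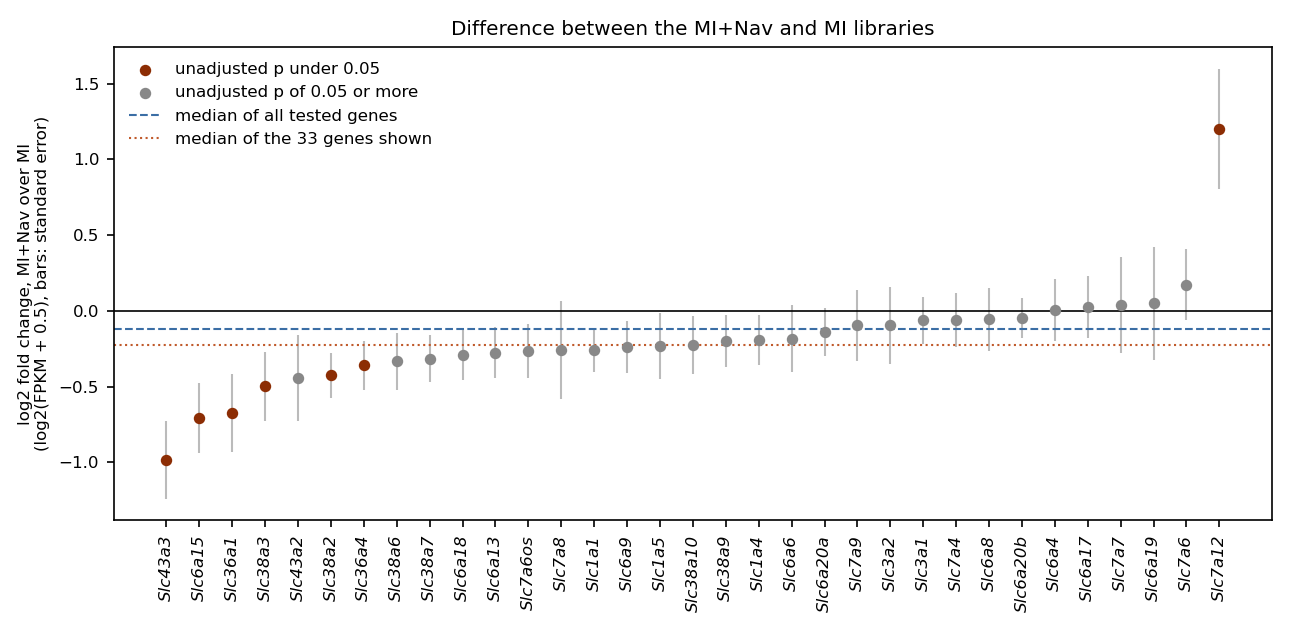
Log2 fold change, Nav over MI group, with its standard error from limma for the 33 tested genes, ordered by size; dark points have an unadjusted p under 0.05, and lines mark the medians of the 33 genes and of all tested genes. All 33 had an adjusted p of at least 0.123 from limma, and Slc7a12 stood above the others at 1.20.

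Slc43a3 (ENSMUSG00000027074, chromosome 2, 84936579 to 84958509), which carries purine nucleobases rather than amino acids, had the lowest p. It had 1.04, 0.556, 0.539, 0.834 and 0.841 FPKM in MI+Nav 1 to 5, against 2.15, 2.95, 1.39, 0.877 and 3.34 FPKM in MI 1 to 5. The values of MI 4 and MI+Nav 1 crossed, and the other 4 MI libraries were above all Nav libraries. Its log2 fold change was -0.98 with a standard error of 0.255 (limma adjusted p = 0.123). Without MI 4 it was -1.19 with a limma adjusted p of 0.00954, without the 4 libraries of highest mitochondrial share it was -1.22 with 0.0107, and with array weights it was -1.05 with 0.0133. In the other 19 of 22 alternatives Slc43a3 did not pass, for example without MI 5 (-0.82, limma adjusted p = 0.247) or without MI+Nav 2 (-0.92, limma adjusted p = 0.305). The 7 endothelial markers were also lower in the Nav group, all 7 at an unadjusted p under 0.05 and 1 of them at an adjusted p under 0.05 from limma. Over all tested genes, 11.5% were lower at an unadjusted p under 0.05. The summed level of the 7 markers was 10.5 to 23.9 FPKM in the Nav libraries and 18.7 to 50.4 FPKM in the MI libraries, and none was at 0 in every library. They were compared with Slc43a3 by group only, and their part in the Slc43a3 difference was not tested. Some markers of other cell types were also lower in the Nav group at an unadjusted p under 0.05. Among them were 3 of 4 tested leukocyte markers (summed level 7.71 to 9.56 FPKM in the Nav and 11.9 to 19.1 FPKM in the MI libraries) and 3 of 5 podocyte markers (7.68 to 22.5 FPKM in the Nav and 19.5 to 32.5 FPKM in the MI libraries). Among 7 markers of smooth muscle and fibroblasts, 2 were lower, including Pdgfrb (limma adjusted p = 0.0317), and 2 were higher. At the same threshold, 2 of 6 markers of the loop of Henle and distal tubule were lower, and 2 of 7 collecting duct markers were higher. Over all tested genes, 1.25% were higher at that threshold. It was reached by 0 of 10 proximal tubule, 0 of 5 red cell and 0 of 6 urothelium and simple-epithelium markers. The median log2 fold changes of these 3 lists were -0.13, -0.62 and 0.95. The part of these cell types was not tested either. Slc43a1 (LAT3), a carrier of branched-chain amino acids 73.0 kb away, averaged 0.164 FPKM.

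Slc6a15 (B0AT2, chromosome 10, 103367783 to 103419377), a carrier of branched-chain amino acids and proline known mainly from the brain, had 2.80, 2.19, 2.58, 2.58 and 3.04 FPKM in MI+Nav 1 to 5, against 3.93, 3.12, 6.60, 7.84 and 3.12 FPKM in MI 1 to 5. In FPKM as deposited, all Nav libraries were below all MI libraries, but MI 2 and MI 5 were within 0.1 FPKM of MI+Nav 5. MI 3 and MI 4, with high mitochondrial shares, carried the highest values, and MI+Nav 2, with the highest share, carried the lowest. The log2 fold change was -0.71 with a standard error of 0.23 (limma adjusted p = 0.222). Without the 4 libraries of highest mitochondrial share it was -0.23 (limma adjusted p = 0.382), and with array weights -0.44 (limma adjusted p = 0.151). With median-of-ratios scaling it was -0.55 (limma unadjusted p = 0.0582), and with quantile normalization -0.55 (limma unadjusted p = 0.0679). The median-of-ratios factors were 0.728 for MI+Nav 2 and 1.15 for MI 2. Divided by these factors, MI 2 lay below MI+Nav 2, so the groups overlapped on that scale.

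Slc7a12 (Asc-2, chromosome 3, 14480697 to 14505830), a light-chain relative found in the mouse kidney, was the gene with the widest range among the 27, 9.69-fold. It had 10.2, 9.30, 5.60, 4.85 and 2.24 FPKM in MI+Nav 1 to 5, against 3.58, 2.99, 3.51, 1.13 and 1.05 FPKM in MI 1 to 5. The 4 highest values were those of MI+Nav 1 to 4, while MI+Nav 5 lay below MI 1, MI 2 and MI 3. The log2 fold change was 1.20 with a standard error of 0.398 (limma adjusted p = 0.24), and with array weights 0.75 (limma adjusted p = 0.338).

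Slc38a2 (SNAT2), the sodium-coupled carrier of small neutral amino acids known as system A, averaged 4.02 ± 0.705 FPKM in the Nav group and 5.54 ± 0.665 FPKM in the MI group (SD, n = 5 each), a log2 fold change of -0.42 (limma adjusted p = 0.261). MI 5 lay below MI+Nav 1, and the other MI libraries were above all Nav libraries. Without the 4 libraries of highest mitochondrial share the log2 fold change of Slc38a2 was -0.25 (limma adjusted p = 0.382), and it was -0.26 with median-of-ratios scaling and -0.28 with quantile normalization.

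Slc36a1 (PAT1), a proton-coupled carrier of small amino acids found on lysosomes, averaged 9.05 ± 3.58 FPKM in the Nav group and 13.9 ± 2.21 FPKM in the MI group (SD, n = 5 each), a log2 fold change of -0.67 (limma adjusted p = 0.306). It was lowest in MI+Nav 2 and MI+Nav 3 and highest in MI 3 and MI 4, all 4 of high mitochondrial share. Without the 4 libraries of highest share its log2 fold change was -0.12 (limma adjusted p = 0.659), without MI+Nav 2 alone it was -0.45 (limma adjusted p = 0.568), and with array weights it was -0.36 (limma adjusted p = 0.261). Slc36a4 (PAT4), a relative with high affinity for proline and tryptophan, averaged 0.719 ± 0.215 FPKM in the Nav group and 1.05 ± 0.196 FPKM in the MI group (SD, n = 5 each), a log2 fold change of -0.36 (limma adjusted p = 0.377) that was -0.18 with quantile normalization. Slc38a3 (SNAT3), a glutamine carrier of the basolateral membrane that serves ammonia formation in acidosis, averaged 5.01 ± 0.366 FPKM in the Nav group and 7.78 ± 3.38 FPKM in the MI group (SD, n = 5 each), a log2 fold change of -0.50 (limma adjusted p = 0.384). The difference in means rested on MI 1, MI 3 and MI 4, since MI 2 and MI 5 were within the range of the Nav libraries. Without MI 4 the log2 fold change of Slc38a3 was -0.30 (limma adjusted p = 0.564), without the 4 libraries of highest mitochondrial share it was -0.18 (limma adjusted p = 0.558), and with median-of-ratios scaling it was -0.33 (limma adjusted p = 0.577).

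**Figure D5:**
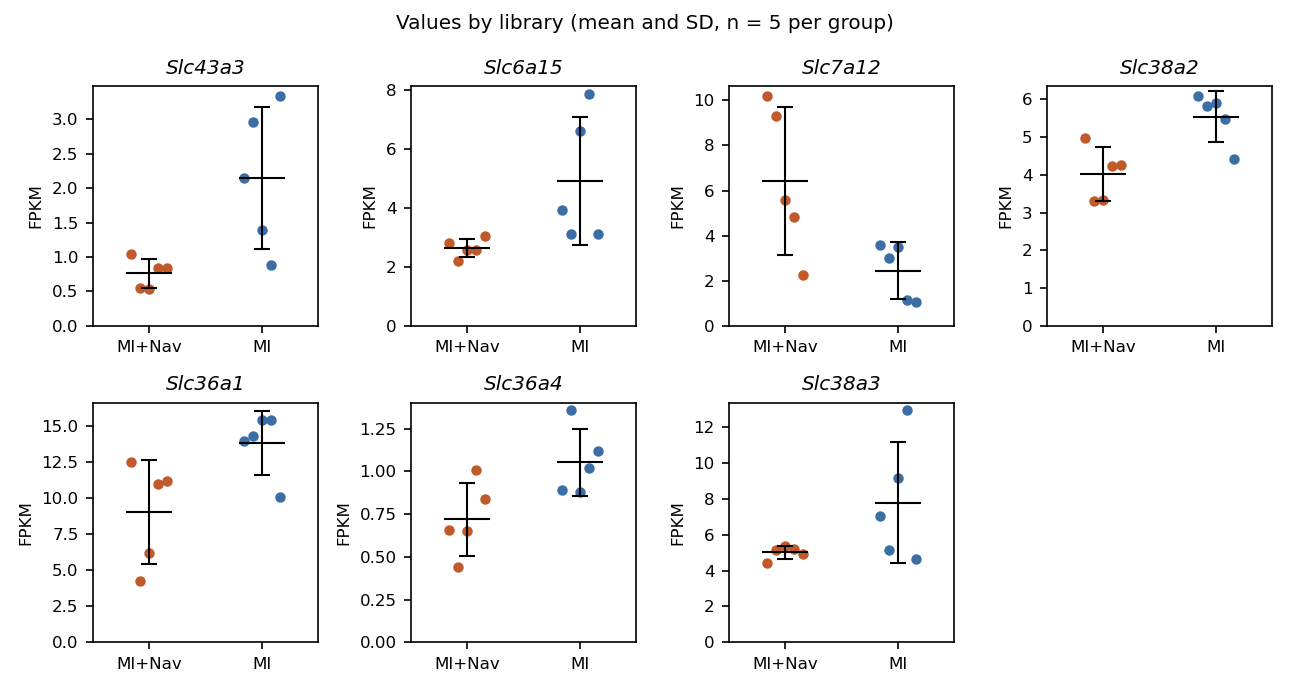
Levels in FPKM by library of the 7 genes with an unadjusted p under 0.05, with the mean and SD of each group (n = 5, MI+Nav left, MI right, axes from 0). In FPKM as deposited the groups separate fully for Slc6a15 alone, and Slc7a12 is the gene with the higher mean in the Nav group.

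The other genes with a mean of at least 1 FPKM did not reach an unadjusted p under 0.05. Slc1a5 (ASCT2) and Slc1a4 (ASCT1), exchangers of small neutral amino acids, averaged 4.92 ± 1.51 and 4.86 ± 0.478 FPKM in the Nav group and 5.78 ± 1.42 and 5.74 ± 1.54 FPKM in the MI group (SD, n = 5 each). Slc38a7, a lysosomal glutamine carrier, averaged 2.44 ± 0.497 FPKM in the Nav group and 3.13 ± 0.443 FPKM in the MI group (SD, n = 5 each). Slc6a9 (GlyT1), a glycine carrier, averaged 2.21 ± 0.351 FPKM in the Nav group and 2.75 ± 0.786 FPKM in the MI group (SD, n = 5 each). Slc38a6 averaged 0.964 ± 0.192 FPKM in the Nav group and 1.39 ± 0.52 FPKM in the MI group (SD, n = 5 each). Above 10 FPKM, Slc38a10 averaged 11.9 ± 1.14 FPKM in the Nav group and 14.4 ± 3.97 FPKM in the MI group (SD, n = 5 each). Slc7a6os, a protein-coding gene on the other strand 2.01 kb from Slc7a6, averaged 3.45 ± 1.01 FPKM in the Nav group and 4.13 ± 0.319 FPKM in the MI group (SD, n = 5 each). For these genes the limma adjusted p was between 0.413 (Slc38a7) and 0.685 (Slc1a5).

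Among the genes below 1 FPKM, the tested ones were Slc36a4, the serotonin carrier Slc6a4 (0.87 FPKM), the vesicular carrier Slc6a17 (0.795 FPKM), Slc7a4 (0.754 FPKM), Slc7a6 and the lysosomal arginine sensor Slc38a9 (0.648 FPKM). The cationic amino acid carriers Slc7a1, Slc7a2 and Slc7a3 averaged 0.395, 0.509 and 0.0652 FPKM and were not tested. The glutamate carriers of glia and neurons were low as a group, with means of 0.29 FPKM for Slc1a2, 0.113 FPKM for Slc1a3, 0.0238 FPKM for Slc1a7 and 0.00949 FPKM for Slc1a6. The system A carriers Slc38a1 and Slc38a4, which lie on chromosome 15 with Slc38a2, averaged 0.0859 and 0.378 FPKM, against 4.78 FPKM for Slc38a2.

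The Slc6 genes grouped here with the transmitter carriers were at or near 0 except for Slc6a15, Slc6a9, Slc6a4 and Slc6a17. The grouping is loose, since Slc6a15, for example, carries branched-chain amino acids and proline. The dopamine carrier Slc6a3, which lies 83.1 kb from Slc6a18 on chromosome 13, averaged 0.00939 FPKM, the glycine carrier Slc6a5 0.0043 FPKM, the GABA carrier Slc6a11 0.0011 FPKM, the proline carrier Slc6a7 0.0398 FPKM and Slc6a14 0.0708 FPKM. The noradrenaline carrier Slc6a2 was at 4.35 FPKM in MI+Nav 1 and at 0 to 0.0551 FPKM in the other 9 libraries. Markers of the adrenal medulla, a list chosen after the values were seen, moved with it. They summed to 10.6 FPKM in MI+Nav 1 and to at most 0.0839 FPKM in the MI libraries, and their part in the Slc6a2 value was not tested. The last genes, Slc7a14, Slc38a11, Slc6a16, Slc7a15 and Slc36a3os, had means of 0.00997 to 0.0327 FPKM.

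Genes that act together with the transporters were read from 5 lists in the same fit, and 0 of their tested genes had an adjusted p under 0.05 from limma, beside 0.365% of all tested genes. Partners of the apical transporters were abundant. Cltrn (collectrin), which Slc6a19 and Slc6a18 need to reach the membrane, averaged 1213 ± 102 FPKM in the Nav group and 1001 ± 201 FPKM in the MI group (SD, n = 5 each), and 0 of the 7 tested partners had an unadjusted p under 0.05. The scaffold Pdzk1 averaged 268 ± 31.4 FPKM in the Nav group and 277 ± 59.9 FPKM in the MI group (SD, n = 5 each). Among 13 genes of amino acid sensing to mTORC1, 4 were lower in the Nav group at an unadjusted p under 0.05 (Castor2, Depdc5, Nprl3 and Flcn), with a median log2 fold change of -0.25 over the 13, against -0.12 over all tested genes, of which 11.5% were lower at that threshold. Among 12 tested amino acid and peptide transporters of other families, the mitochondrial glutamate carrier Slc25a22 was lower at an unadjusted p under 0.05, and the median was -0.19. The 9 tested genes of the ATF4 list, Atf4 itself and targets induced when amino acids are short, had a median of -0.03. The 6 genes of the NFAT5 list, the tonicity factor Nfat5 itself and its targets, had a median of -0.04. In either list, 0 genes had an unadjusted p under 0.05.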

How the data were processed

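RNA was selected by poly(A), and strand-marked paired-end libraries were made from it. According to the submitters' processing notes, the authors trimmed reads with cutadapt 1.9, aligned them to mm10 with HISAT2 2.0.4, quantified them with StringTie 1.3.4d and deposited FPKM values for 29868 genes. The annotation release was not given in the sources used here, and 99.67% of the gene IDs occur in GENCODE M21. The authors named DESeq2 and edgeR, which need counts, for differential expression. Here 13412 genes (0.5 FPKM or more in 5 or more libraries) entered a fit of log2(FPKM + 0.5) on the group in limma 3.58.1 (R 4.3.3), with lmFit and a trended, robust eBayes prior, and p was adjusted over all of them after Benjamini and Hochberg. The procedure was tested on simulated data. Depth was estimated from single-transcript genes, taking the most common low value per length as 1 fragment.

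Values by library were given for the 12 genes of highest mean and for genes past the test or without overlap between groups, means for other genes of at least 1 FPKM or with an unadjusted p under 0.05. Slc43a3 and Slc7a12 were also given by library, a choice made after their values were seen. The members and lists were chosen with earlier results of these data known, and the adrenal medulla list and the letters searched in the promoters after the values were seen. Same-numbered libraries did not deviate together (correlations of -0.22 to 0.05), so no block was used. Alternatives were other pseudocounts, filters, scalings, weights and covariates, a replicate block and each library left out. Stretches of 50 bases shared between transcripts were counted in the reference transcripts. Figures were drawn with matplotlib 3.10.9.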

Additional observations from a re-analysis of the deposited data

Results flagged for a closer look

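In 68 groups of 5 values (34 genes in the Nav and the MI group), the highest or lowest library was set against the others of its group with Dixon's criterion at 95%, and 3 stood far from the rest. Chance alone gives such a value in about 1 in 20 groups, so a few of the 68 groups would hold one in any case. This rate holds only for genes chosen without regard to their values. Slc6a2, the noradrenaline carrier, was at 4.35 FPKM in MI+Nav 1, against 0 to 0.0494 FPKM in the other Nav libraries. This gene did not pass the filter of the test between groups and was at 0 in 3 libraries. The rule by which Slc6a2 was among the 34 genes was not recorded, so the chance rate cannot be set against its value. Slc7a14 did not pass the filter either and was not flagged. It was at 0.149 FPKM in MI+Nav 1, against 0 to 0.00386 FPKM in the other Nav libraries. The adrenal medulla genes Th, Dbh, Chga and Chgb were at 3.76, 5.49, 0.371 and 0.953 FPKM in the same library, and their part in the Slc6a2 value was not tested. Slc6a20b was at 25.4 FPKM in MI+Nav 2, against 30.4 to 31.2 FPKM in the other Nav libraries, and MI+Nav 2 also had the highest mitochondrial share of all 10 libraries. Slc36a1 was at 10.1 FPKM in MI 5, against 14.0 to 15.5 FPKM in the other MI libraries.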

How the results depend on the processing

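The median log2 fold change of the tested genes (-0.22 over 33) was -0.27 to -0.06 over 22 alternatives. Each move was less than the SD of 0.18 between libraries, which is a lenient measure for a difference between group means. The median was -0.07 with median-of-ratios scaling, -0.09 with quantile normalization, -0.13 with array weights, -0.13 without MI+Nav 2, -0.12 without the 4 libraries of highest mitochondrial share and, over another set of genes, -0.06 with no filter on low values. The 12 genes of highest level were the same 12 under all 13 alternatives to the order. The 7 genes named for their difference kept their sign under each alternative run, but some shrank, Slc36a1 to -0.12, Slc38a3 to -0.18 and Slc6a15 to -0.23 without the 4 libraries of highest mitochondrial share (Slc36a4 had no value with a filter at 1 FPKM), and Slc43a3 alone passed the test in any (3 of 22, limma adjusted p of 0.00954 to 0.315). The number of the 33 genes past the test was 0, but 1 with array weights and 1 without the 4 libraries of highest mitochondrial share (an alternative added after the data were seen), and 0 to 1 when a library was left out (1 without MI 4). The number at an unadjusted p under 0.05 was 7, but 4 with median-of-ratios scaling, 4 with quantile normalization and 4 to 8 when a library was left out. Over all tested genes that number was 1711, but 2090 with median-of-ratios scaling and 1803 with quantile normalization. It was 1111 (without MI 1) to 2039 (without MI 3) when a library was left out. Under both scalings it rose over all tested genes while it fell among the transporters. Over the whole table, 49 genes passed, 95.9% of them lower in the Nav group. The count was 378 with array weights, 284 without the 4 libraries of highest mitochondrial share, 91 with that share as covariate, 3 with quantile normalization (66.7% lower) and 0 with no filter on low values (where 2809 genes had an unadjusted p under 0.05), and 1 (without MI+Nav 2) to 295 (without MI 4) when a library was left out. Median-of-ratios scaling gave 35 lower and 10 higher genes (77.8% lower). The replicate numbers did not pair the libraries, since same-numbered libraries correlated between -0.22 and 0.05. With the replicate block, 6 genes of the table and 0 of the 33 passed (Slc43a3 had a limma adjusted p of 0.180), and 6 of the 33 had an unadjusted p under 0.05. The cause of these differences was not tested. At the estimated depth, genes below 0.1 FPKM rest on few fragments.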
